A study of Homo sapiens with 4 samples.

Results

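A set of 10 genes of mucous and secretory epithelium was followed in FaDu cells that overexpress TINCR. The genes were AGR2, MUC1, MUC4, MUC16, MUC20, SLPI, WFDC2, PIGR, EPCAM and PSCA, taken by name from the 60649 gene rows of the count table. FaDu is an established human cell line of a squamous carcinoma of the throat. The cells carried TINCR tagged with HA and FLAG epitopes, or else the empty vector, and all were grown in MEM alpha with fetal bovine serum. The vector, its promoter and the way it was introduced are not given in the labels. TINCR is known from keratinocyte differentiation as a long noncoding RNA, and it also encodes a small ubiquitin-like protein. There were 2 RNA-seq libraries with TINCR-HA-FLAG and 2 with the empty vector, which the submitters describe as technical replicates of 1 line, so every p-value measures only the spread between these libraries. The comparison asks which of these genes differ in level when tagged TINCR is overexpressed.

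Mucous epithelia cover themselves with mucins, long proteins whose serine- and threonine-rich stretches carry dense O-linked sugars. Some mucins are secreted and form gels. Others, among them MUC1, MUC4, MUC16 and MUC20, stay anchored in the cell membrane. AGR2 is a protein disulfide isomerase of the endoplasmic reticulum that mouse intestine needs to make mucin. SLPI and WFDC2 are small secreted proteins with WAP domains, PIGR carries polymeric immunoglobulin across epithelial cells, and EPCAM and PSCA are surface proteins of many epithelia. Stratified squamous epithelium uses several of these genes too, so their presence does not by itself mark a glandular cell.

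Total counts were 18151424 and 22331602 with TINCR-HA-FLAG and 17069533 and 17315648 with the empty vector. TINCR itself had 1921 and 2943 counts with TINCR-HA-FLAG, against 68 and 64 with the empty vector (log2 fold change 4.93). All 9 squamous markers examined (KRT5, KRT6A, KRT14, KRT17, TP63, SFN, DSG3, PKP1 and S100A2) were detected. On the CPM scale (counts scaled to library size, with library sizes adjusted by the TMM method) they summed to 6416 and 7798 with TINCR-HA-FLAG and to 7868 and 9074 with the empty vector. Levels were lower in both TINCR-HA-FLAG libraries than in both empty vector libraries for 8 of these 9 markers, beside 17.9% of all genes tested, and KRT14 fell (log2 fold change -1.08, adjusted p = 0.014, edgeR). KRT13, a keratin of squamous mucosa outside the marker list that was named after its values were seen, rose (log2 fold change 1.47, adjusted p = 0.000567, edgeR). Whether this bears on the secretory genes was not tested. The 7 markers of club or serous secretory cells summed to 17.87 and 17.22 CPM with TINCR-HA-FLAG and to 13.66 and 14.16 CPM with the empty vector. These sums did not overlap. BPIFB1 alone had 11.62 and 11.36 CPM with TINCR-HA-FLAG, against 7.88 and 7.90 CPM with the empty vector. Among the other tested markers, BPIFA1 had a log2 fold change of 0.55, and SCGB1A1, SCGB3A1 and LTF had -0.78, -0.05 and -0.13. None of the 7 was called, and SCGB3A2 had 0 counts in all 4 libraries. The part of these markers in the values of the 10 genes was not tested. The 8 markers of goblet or mucous secretory cells summed to 5.995 to 7.928 CPM with TINCR-HA-FLAG and 5.721 to 6.488 CPM with the empty vector. Of these 8, FOXA3 and CLCA1 had 0 counts in all 4 libraries, and TFF3 and AGR3 had too few to be tested. MUC5AC, MUC5B, MUC2 and SPDEF were tested, at low counts, and none was called.

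Of the 10 genes, 9 passed the filter on low counts and were tested. PSCA did not pass. With TINCR-HA-FLAG, 1 of the 9 rose at an adjusted p under 0.05, beside 0.453% of all 18771 genes tested that rose. This gene was AGR2. By edgeR and by DESeq2, 0 of the 9 fell, beside 0.0959% of all genes tested in edgeR and 0.431% of the genes DESeq2 adjusted. DESeq2 called 3 higher (AGR2, MUC16 and WFDC2), beside 0.958% of the genes it adjusted. At an unadjusted p under 0.05, 6 were higher and 0 were lower, beside 5.88% and 4.31% of all genes. Log2 fold changes were positive for 8 of the 9, beside 50.7% of all genes, with a median of 0.61 against 0.004 for all genes. For 7 of the 9, both TINCR-HA-FLAG libraries lay above both empty vector libraries, as 21.7% of all genes did, and for 0 they lay below, as 17.9% of all genes did. The 10 genes were chosen with earlier results of these data known, so these shares describe them and are no independent test. A higher level in bulk RNA can come from more expressing cells or from more RNA per cell, and these cannot be told apart here.

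**Figure D1:**
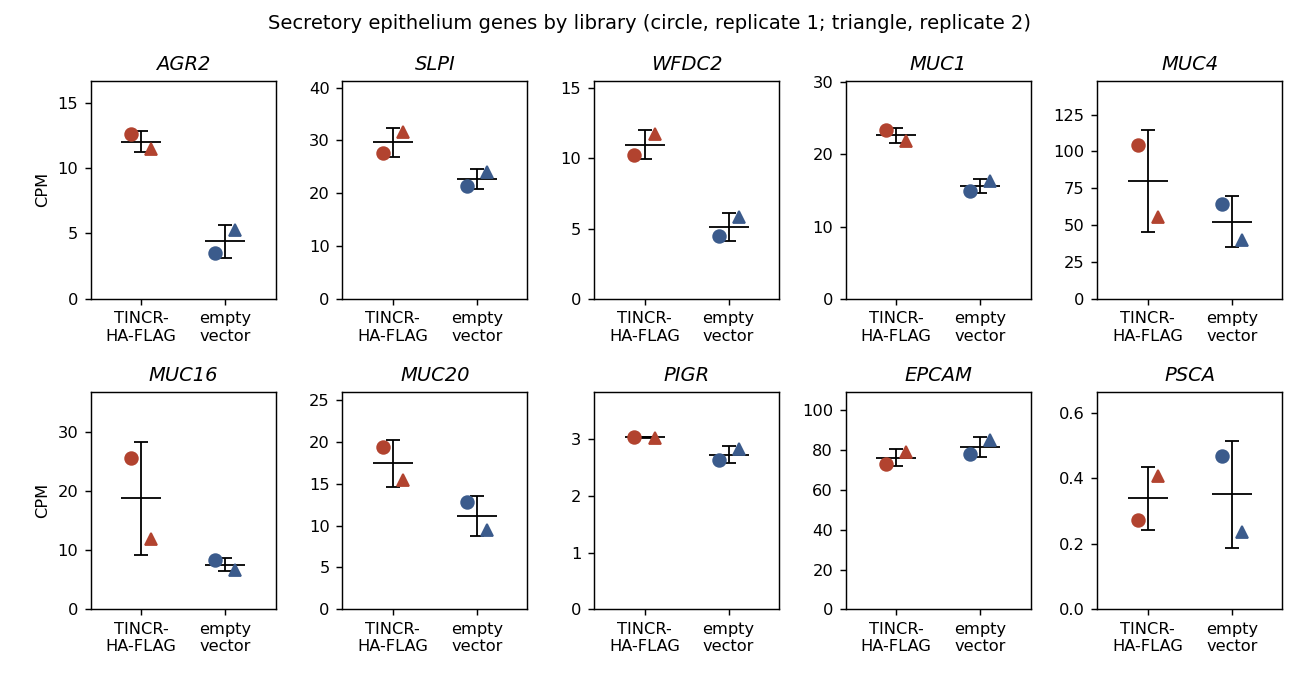
CPM of each of the 10 genes (vertical axes, linear, from 0) in the TINCR-HA-FLAG libraries (left, red) and the empty vector libraries (right, blue), with the mean and SD of 2 libraries as a bar and whiskers. The groups stand apart for AGR2, SLPI, WFDC2, MUC1, MUC16, MUC20 and narrowly for PIGR, and overlap for MUC4, EPCAM and PSCA.

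AGR2 lies on GRCh38 at chr7:16791811-16833433 on the minus strand (ENSG00000106541.12). It had 232 and 254 counts with TINCR-HA-FLAG, against 60 and 89 with the empty vector. On the CPM scale the level averaged 12.02 ± 0.81 with TINCR-HA-FLAG and 4.38 ± 1.24 with the empty vector (SD, n = 2 each). The lower of the TINCR-HA-FLAG libraries was 2.18 times the higher of the empty vector libraries. AGR2 rose 2.74-fold (log2 fold change 1.45, 95% interval 0.95 to 1.96, adjusted p = 0.0246, edgeR quasi-likelihood test), and 0.7% of tested genes had a higher fold change. The 2 TINCR-HA-FLAG libraries were close to each other, while empty vector replicate 1 was at 0.667 of replicate 2. AGR2 was called in every alternative analysis that kept all 4 libraries, with adjusted p up to 0.0444. Over all 11 alternatives its log2 fold change ran from 1.151 to 1.78, the extremes being those without empty vector replicate 1 and without replicate 2 of that group.

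The WAP-domain genes SLPI and WFDC2 lie 215.1 kb apart on chromosome 20. WFDC2 (chr20:45469706-45481532, plus strand), which encodes a secreted protein used as a serum marker of ovarian carcinoma, had 189 and 260 counts with TINCR-HA-FLAG, against 76 and 99 with the empty vector. Its level averaged 10.99 ± 1.03 CPM with TINCR-HA-FLAG and 5.14 ± 0.99 CPM with the empty vector (SD, n = 2 each). The groups did not overlap, and the lower TINCR-HA-FLAG library was 1.76 times the higher empty vector library. The log2 fold change was 1.10 (95% interval 0.63 to 1.57) and did not pass the test (adjusted p = 0.0631, edgeR). It did pass in DESeq2 (adjusted p = 0.0173). In edgeR it passed when TINCR-HA-FLAG replicate 1 or 2 or empty vector replicate 2 was left out (adjusted p = 0.00287, 0.0479 and 0.00652), and it did not when empty vector replicate 1 was (adjusted p = 0.216). SLPI (chr20:45252239-45254564, minus strand), which encodes an inhibitor of neutrophil elastase, moved less. It had 27.7 and 31.6 CPM with TINCR-HA-FLAG, against 21.3 and 23.9 CPM with the empty vector. These groups did not overlap either, but the lower TINCR-HA-FLAG library was only 1.16 times the higher empty vector library. SLPI had a log2 fold change of 0.39 (95% interval 0.10 to 0.69, adjusted p = 0.323).

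Of the tested members, WFDC2 had the pattern nearest to that of AGR2. The Euclidean distance between their centred log2 CPM values over the 4 libraries was 0.456, against 0.942 to 1.61 for AGR2 with the other 7 members. Their promoters are shown because they differ in base composition. The 250 bases before the RefSeq start (GRCh38.p14), 5′ to 3′ on the gene's own strand, are printed with CpG dinucleotides in capitals, AGR2 from chr7:16805000-16805249 (minus strand) and WFDC2 from chr20:45469503-45469752 (plus strand). These RefSeq starts lie inside the longer gene spans of the GENCODE annotation given above.
AGR2: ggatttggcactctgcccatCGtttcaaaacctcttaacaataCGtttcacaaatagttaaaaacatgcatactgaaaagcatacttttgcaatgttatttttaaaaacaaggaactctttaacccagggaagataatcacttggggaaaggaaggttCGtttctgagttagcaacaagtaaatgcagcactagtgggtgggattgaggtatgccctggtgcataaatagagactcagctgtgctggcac
WFDC2: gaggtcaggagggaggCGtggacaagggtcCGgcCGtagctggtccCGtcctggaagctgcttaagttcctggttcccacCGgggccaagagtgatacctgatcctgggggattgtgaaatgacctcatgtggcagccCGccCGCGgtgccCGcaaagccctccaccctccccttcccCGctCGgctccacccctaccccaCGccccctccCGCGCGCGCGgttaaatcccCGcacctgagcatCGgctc
The AGR2 stretch was 40.4% G or C with 3 CpG dinucleotides, and 13.4% of the 35116 promoter windows of the RefSeq table had a lower G and C content. The WFDC2 stretch was 67.2% G or C with 19 CpG dinucleotides, and 72.7% of the windows had a lower content. The medians over all windows were 58.0% and 11 CpG dinucleotides.

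RefSeq promoter windows, from 250 bases before to 50 after the start, were matched for 6 of the 10 genes (AGR2, MUC1, MUC4, MUC16, PIGR and WFDC2). They were searched on both strands for the AP-1 motif TGANTCA, the forkhead motif TGTTTAC and the TEAD motif GGAATG, which 7.71%, 3.42% and 14.0% of all windows hold. The AGR2, WFDC2 and PIGR windows held none of these letters. The TEAD letters occurred at 1 place in MUC1, inside both of its windows, and at 1 place in MUC4. The AP-1 letters occurred once, in 1 of the 2 MUC16 windows. The core of the interferon-stimulated response element and an NF-kB motif, held by 3.57% and 5.68% of all windows, were in none of the windows of the 6 genes. A match of letters is a description and does not show a bound site.

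The 4 membrane-bound mucins were all higher on average with TINCR-HA-FLAG, but none passed the test in edgeR. MUC1 (chr1:155185824-155192916, minus strand), the mucin of the apical membrane of most simple epithelia, had 23.4 and 21.9 CPM with TINCR-HA-FLAG, against 14.9 and 16.3 CPM with the empty vector. The groups did not overlap, and the lower TINCR-HA-FLAG library was 1.34 times the higher empty vector library. Its log2 fold change was 0.54 (95% interval 0.23 to 0.84, adjusted p = 0.161, edgeR).

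MUC16 (chr19:8848844-8981342, minus strand), the very large mucin of the ocular and airway surface, had 469 and 265 counts with TINCR-HA-FLAG, against 142 and 114 with the empty vector. Its level averaged 18.7 ± 9.56 CPM with TINCR-HA-FLAG and 7.51 ± 1.11 CPM with the empty vector (SD, n = 2 each). The groups did not overlap, but TINCR-HA-FLAG replicate 1 was 2.13 times replicate 2, a ratio exceeded by 5.13% of tested genes. MUC16 had a log2 fold change of 1.30 (95% interval 0.59 to 2.01), which missed the threshold (adjusted p = 0.143, edgeR), while DESeq2 called it (adjusted p = 0.00474). The value was 0.68 when TINCR-HA-FLAG replicate 1 was left out and 1.76 when replicate 2 was. With empty vector replicate 1 or 2 left out it was 1.42 and 1.16.

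MUC4 and MUC20 are neighbours on chromosome 3, 5.6 kb apart and on opposite strands. MUC4 (chr3:195746765-195812277, minus strand), a membrane mucin that binds the receptor ERBB2, had 104.2 and 55.4 CPM with TINCR-HA-FLAG, against 64.5 and 39.99 CPM with the empty vector. The groups overlapped, since empty vector replicate 1 lay above TINCR-HA-FLAG replicate 2, and within each group replicate 1 was the higher library. MUC4 had a log2 fold change of 0.61 (95% interval -0.0018 to 1.21, adjusted p = 0.492, edgeR). It was 0.09 when TINCR-HA-FLAG replicate 1 was left out and 0.30 when empty vector replicate 2 was. It was 0.99 when TINCR-HA-FLAG replicate 2 was left out, and 0.95 when empty vector replicate 1 was. With 1 library left out, the spread of its group is not measured.

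MUC20 (chr3:195720882-195741123, plus strand), a short membrane-bound mucin, had 19.4 and 15.5 CPM with TINCR-HA-FLAG, against 12.8 and 9.44 CPM with the empty vector. The groups did not overlap, and replicate 1 was again the higher library in each. MUC20 had a log2 fold change of 0.64 (95% interval 0.22 to 1.07, adjusted p = 0.243, edgeR). This value ran from 0.45 to 0.84 with each library left out in turn. MUC20 is the member whose counts are least certain. Of its 3800 distinct 50-base words in the annotated transcripts, 54.1% also occur in transcripts of other genes, 42.3% in the overlapping noncoding MUC20-OT1 and 21.5% in the pseudogene copy MUC20P1. None of the words of AGR2, MUC1, MUC4, MUC16, SLPI, WFDC2 or PSCA did so, and 1.4% and 1.65% of those of PIGR and EPCAM did. PSCA, however, shares 368 of its 1763 exon bases with JRK on the opposite strand, and without a stated strand setting reads there cannot be told apart. MUC1 shares 48 of its 4717 exon bases with another protein-coding gene on the same strand. That is fewer bases than a 50-base word holds, so the word search could not show it. MUC20P1 had 171 and 156 counts with TINCR-HA-FLAG, against 67 and 53 with the empty vector (log2 fold change 1.20, adjusted p = 0.0876). MUC20-OT1 had 656 and 478 counts with TINCR-HA-FLAG, against 523 and 364 with the empty vector (log2 fold change 0.13, adjusted p = 0.912). With MUC20 and MUC20P1 summed, the log2 fold change was 0.80 (adjusted p = 0.102).

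**Figure D2:**
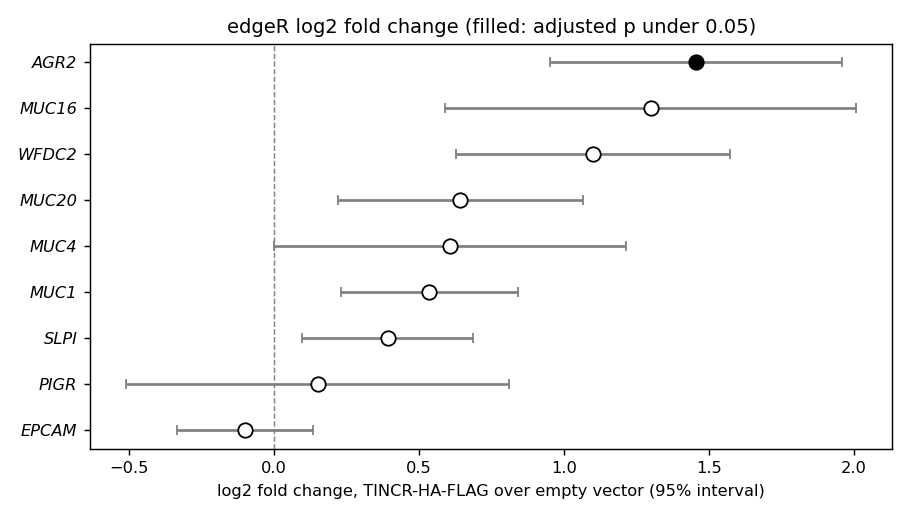
Log2 fold change of TINCR-HA-FLAG over empty vector (horizontal axis) with its unadjusted 95% interval for the 9 tested genes, by edgeR on 2 libraries per group. AGR2 is the 1 filled point, called at an adjusted p of 0.0246, and EPCAM is the 1 gene on the negative side, at -0.10.

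PIGR, EPCAM and PSCA showed no call in any analysis run. PIGR (chr1:206928518-206946466, minus strand) had 56 and 67 counts with TINCR-HA-FLAG, against 45 and 48 with the empty vector. The log2 fold change was 0.15, with a wide 95% interval from -0.51 to 0.81 at these low counts (adjusted p = 0.920, edgeR). EPCAM (chr2:47345158-47387601, plus strand), an adhesion molecule of epithelial cells, had 72.98 and 79.1 CPM with TINCR-HA-FLAG, against 78.0 and 85.1 CPM with the empty vector. These groups overlapped. Its log2 fold change was -0.10 (adjusted p = 0.831), and the 95% interval from -0.34 to 0.13 leaves out a change as large as that of AGR2 in either direction. PSCA (chr8:142670308-142682724, plus strand), a membrane-anchored protein of the LY6 family, was barely detected, with 5 and 9 counts with TINCR-HA-FLAG and 8 and 4 with the empty vector. Fitted without the low-count filter, its log2 fold change was -0.03 with a standard error of 0.70 (adjusted p = 0.989), so a difference was not detectable at this depth.

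**Figure D3:**
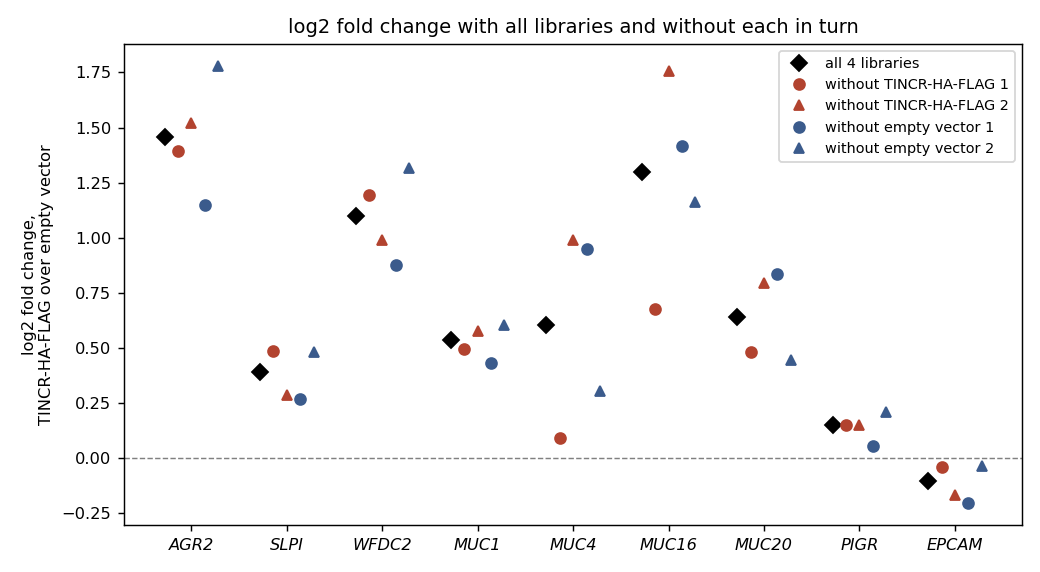
Log2 fold change of TINCR-HA-FLAG over empty vector (vertical axis) for the 9 tested genes with all 4 libraries (black) and without each library in turn (red and blue). AGR2 stays between 1.151 and 1.78, whereas MUC4 ranges from 0.09 to 0.99 and MUC16 from 0.68 to 1.76.

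Levels were compared between genes as CPM per kb of merged annotated exons. SLPI was the most expressed member, at 49.7 ± 4.63 with TINCR-HA-FLAG and 37.97 ± 3.13 with the empty vector (SD, n = 2 each, CPM per kb). It stood above 96.3% and 94.5% of tested genes. EPCAM came next, at 30.2 ± 1.71 with TINCR-HA-FLAG and 32.4 ± 1.98 with the empty vector. The libraries of these 2 genes did not overlap within either group, but with the longest transcript as the length EPCAM was at 47.3 with the empty vector, above SLPI at 37.97. With TINCR-HA-FLAG there followed WFDC2 (7.95 ± 0.74), MUC1 (4.79 ± 0.22), AGR2 (4.23 ± 0.29), MUC20 (4.10 ± 0.65), MUC4 (3.74 ± 1.62), PIGR (0.693 ± 0.0034), MUC16 (0.427 ± 0.22) and PSCA (0.192 ± 0.054). The libraries of AGR2 overlapped those of MUC20, and those of MUC4 overlapped those of MUC20, AGR2 and MUC1. With the empty vector the order below EPCAM was WFDC2 (3.72 ± 0.72), MUC1 (3.30 ± 0.21), MUC20 (2.62 ± 0.56), MUC4 (2.45 ± 0.81), AGR2 (1.54 ± 0.43), PIGR (0.624 ± 0.033), PSCA (0.199 ± 0.093) and MUC16 (0.171 ± 0.025). There WFDC2 overlapped MUC1, MUC20 overlapped MUC4 and PSCA overlapped MUC16. With the longest transcript as the length, MUC20 was at 3.91 with the empty vector, above MUC1 at 3.74. Levels by that length are given for the empty vector only, and the order with TINCR-HA-FLAG may differ by it. AGR2 stood above MUC20 and MUC4 in mean level with TINCR-HA-FLAG and below them with the empty vector, and it lay above 56.3% of tested genes with TINCR-HA-FLAG and above 35.9% with the empty vector.

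The genes outside the list whose pattern over the 4 libraries was nearest to that of AGR2 were CYP7B1, SOX6 and SLC2A10, at distances of 0.251, 0.275 and 0.285. Only 4 libraries enter this measure, and AGR2 was not chosen independently of its difference, so it is a description. CYP7B1, an oxysterol hydroxylase gene, had 12.4 and 12.3 CPM with TINCR-HA-FLAG, against 4.32 and 5.25 CPM with the empty vector (log2 fold change 1.36, adjusted p = 0.0173, edgeR). SLC2A10, a glucose transporter family gene, had 12.6 and 13.3 CPM with TINCR-HA-FLAG, against 4.38 and 6.84 CPM with the empty vector (log2 fold change 1.21, adjusted p = 0.0478). It was no longer called with no filter, a minimum of 1 CPM or legacy dispersions (adjusted p = 0.0957, 0.0518 and 0.0552). Its value was 0.88 with empty vector replicate 1 left out. SOX6, a transcription factor gene, had 6.79 and 5.32 CPM with TINCR-HA-FLAG, against 1.99 and 3.13 CPM with the empty vector (log2 fold change 1.23, adjusted p = 0.141), and was called when TINCR-HA-FLAG replicate 2 or empty vector replicate 2 was left out (adjusted p = 0.0204 and 0.0262).

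Related genes were examined in 10 lists that hold 138 genes, of which 97 were tested. Of these, 2 rose and 0 fell by edgeR, which is 2.06% beside 0.549% of all genes tested. DESeq2 called the same 2 higher, beside 0.958% of the genes it adjusted, and gave some of the 97 no adjusted p. At an unadjusted p under 0.05, 11 of the 97 were higher and 4 lower, beside 5.88% and 4.31% of all genes tested. The median log2 fold change of the 97 was 0.01, beside 0.004 for all genes. FCGRT, which encodes the neonatal Fc receptor, an immunoglobulin carrier like PIGR, had 26.2 ± 0.18 CPM with TINCR-HA-FLAG and 11.7 ± 0.16 CPM with the empty vector (SD, n = 2 each). Its log2 fold change was 1.17 (adjusted p = 0.00473, edgeR), and it was called in every alternative analysis that kept all 4 libraries. ERP44, which encodes an endoplasmic reticulum protein that retains client proteins through disulfide bonds, had 46.5 ± 0.015 CPM with TINCR-HA-FLAG and 30.2 ± 0.97 CPM with the empty vector (log2 fold change 0.62, adjusted p = 0.0436). ERP44 did not pass with RLE size factors or with no low-count filter (adjusted p = 0.0530 and 0.130). Its value was 0.55 when empty vector replicate 1 was left out.

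The gel-forming and small secreted mucins were low. Of the 6, 4 were tested, 2 were higher and 2 lower, and none was called (smallest adjusted p = 0.808). MUC5AC, the main gel mucin of airway goblet cells, had 50 and 46 counts with TINCR-HA-FLAG, against 29 and 47 with the empty vector. MUC5B, the gel mucin of submucosal glands, had 37 and 32 counts with TINCR-HA-FLAG, against 42 and 34 with the empty vector. The groups overlapped for each of these 2 genes. Of 11 other membrane-bound mucins and sialomucins, 4 were tested and none was called, with CD164 at a log2 fold change of 0.10 and PODXL at 0.22 (adjusted p = 0.855 and 0.580). All 4 values were positive, beside 50.7% of all genes tested. The highest, named after its values were seen, was that of MUC15, at 1.86 (adjusted p = 0.412). It had 16 and 15 counts with TINCR-HA-FLAG, against 2 and 5 with the empty vector, and these groups did not overlap. Only the TINCR-HA-FLAG libraries reached the filter's minimum of about 10 counts, so the positive value of MUC15 is not independent of the filter.

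Among 21 tested enzymes of mucin-type O-glycosylation, none was called, 11 were higher and 10 lower, and the median was 0.001. The initiating transferase GALNT1 had a log2 fold change of -0.08 and the sialyltransferase ST3GAL1 one of 0.04 (adjusted p = 0.882 and 0.945). The 2 core branching enzymes GCNT3 and GCNT1, named after their values were seen, had the largest positive values of that list, 1.55 and 0.75 (adjusted p = 0.0910 and 0.0999). GCNT3 had 78 and 83 counts with TINCR-HA-FLAG, against 25 and 21 with the empty vector. With each library left out in turn its value ran from 1.45 to 1.64, and that of GCNT1 from 0.69 to 0.81. GALNT18 and GALNT3, also named after their values were seen, had the lowest values, -0.47 and -0.37 (adjusted p = 0.389 and 0.289, edgeR). Groups did not overlap for 4 higher and 4 lower enzymes of the list, beside 21.7% and 17.9% of all genes tested. In the family of AGR2 and protein disulfide isomerases, 10 were tested, and apart from ERP44 none was called. P4HB and PDIA4, abundant isomerases of the endoplasmic reticulum, had log2 fold changes of -0.26 and -0.17 (adjusted p = 0.582 and 0.727), and 8 of the 10 values were negative. The groups did not overlap for P4HB and overlapped for PDIA4. Of the other WAP-domain genes 3 were tested and none was called, with PI3, an elastase inhibitor gene near SLPI, at 0.20 (adjusted p = 0.910) and WFIKKN1 at -0.03 (adjusted p = 0.987). The third, ANOS1, had 18 and 42 counts with TINCR-HA-FLAG, against 7 and 10 with the empty vector, and a log2 fold change of 1.55 (adjusted p = 0.378). Its groups did not overlap, and it was named after its values were seen. Only with TINCR-HA-FLAG did both libraries reach the filter's minimum of about 10 counts, so the value of ANOS1 is not independent of the filter.

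Other secretory products, such as lysozyme, lactoferrin and secretoglobins, had 11 tested genes, none called, 4 higher and 7 lower. CLU, the clusterin gene, had a log2 fold change of -0.42 and BPIFB1, an airway secretory protein gene, one of 0.54 (adjusted p = 0.410 and 0.297). The groups did not overlap for either gene. Of the secretory and glandular transcription factors, 11 were tested, 9 were higher and none was called, with a median of 0.18. GRHL2 and ELF3, factors of epithelial identity, had log2 fold changes of 0.27 and 0.14 (adjusted p = 0.407 and 0.780). FOXA1 and EHF, named after their values were seen, had 0.38 and 0.43 (adjusted p = 0.279 and 0.153). The 2 lower factors, FOXA2 and SOX9, had -0.78 and -0.26 (adjusted p = 0.636 and 0.730, edgeR). FOXA2 had 15 and 19 counts with TINCR-HA-FLAG, against 21 and 28 with the empty vector, and its groups did not overlap. SPDEF, which drives goblet cell differentiation, had 10 and 20 counts with TINCR-HA-FLAG, against 2 and 10 with the empty vector (adjusted p = 0.713). Besides FCGRT, the 7 other tested partners of immunoglobulin transport lay between -0.09 and 0.19, among them VPS35 and EXOC5 at -0.01 each. None of the 15 tested EPCAM partners was called. The tetraspanin gene CD9 had a log2 fold change of -0.08 (adjusted p = 0.885). None of the 10 tested relatives of PSCA in the LY6 and uPAR domain family was called, with LY6E at 0.51 and CD59 at 0.17 (adjusted p = 0.257 and 0.677). With each library left out in turn, the value of LY6E ran from 0.28 to 0.73, that of CLU from -0.69 to -0.20 and that of EHF from 0.33 to 0.50.

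**Figure D4:**
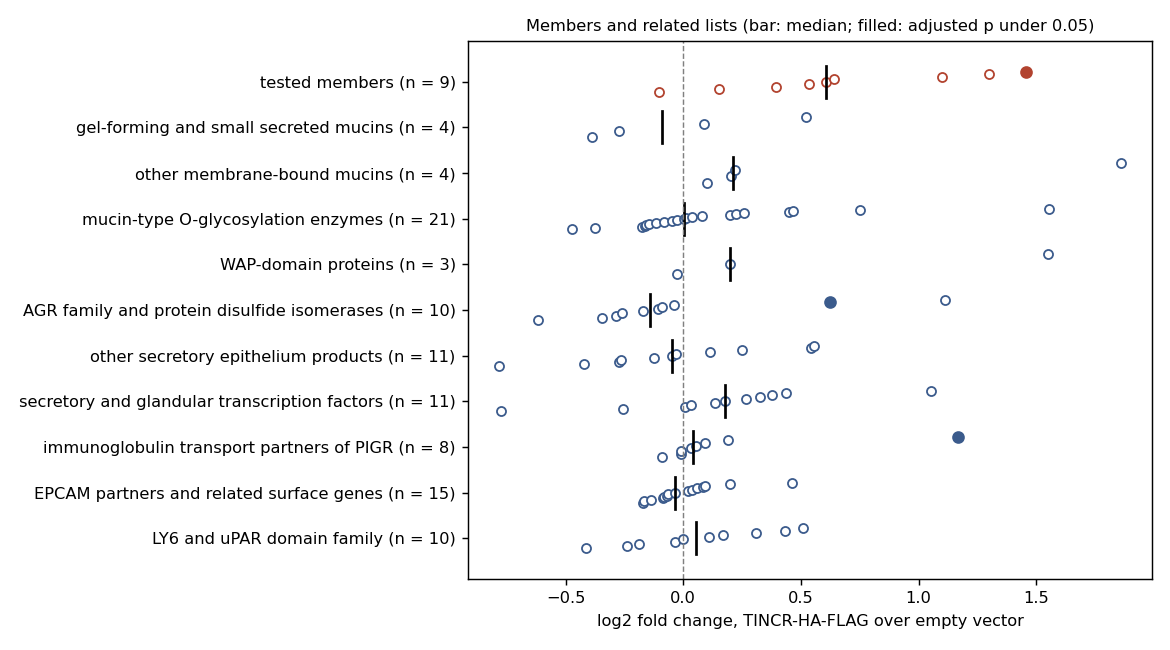
Log2 fold change of TINCR-HA-FLAG over empty vector (horizontal axis) for the 9 tested members (red) and for the tested genes of 10 related lists (blue), 1 point per gene, with the median as a bar. The members have a median of 0.61 and the list medians lie between -0.14 and 0.21. Filled points mark AGR2, ERP44 and FCGRT. Members and lists were chosen with earlier results of these data known.

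Genes around the members were checked within 500 kb. None of the tested neighbours was called for AGR2, MUC1, MUC4, MUC16, MUC20, SLPI, PIGR, EPCAM or PSCA. The neighbours of AGR2 numbered 7, with a median log2 fold change of 0.11, and the nearest, TSPAN13 at 7.3 kb, had 0.24 (adjusted p = 0.623). The 20 neighbours of MUC4 had a median of -0.01, with 9 values positive. MUC20, 5.6 kb away, had 0.64 and TNK2, 51.1 kb away, had -0.36 (adjusted p = 0.243 and 0.394). The values ran from -1.10 to 1.20, the highest being that of MUC20P1. Of the 23 neighbours of WFDC2, PLTP, a phospholipid transfer protein gene 417.1 kb away, was called, with a log2 fold change of 0.998 (adjusted p = 0.0477), and the median was 0.17. Positive values were held by 18 of these 23 and by 10 of the 14 neighbours of SLPI, beside 50.7% of all genes. The windows of SLPI and WFDC2 overlap and hold many of the same genes, and each of these members is counted as a neighbour of the other. The counts for SLPI and WFDC2 are therefore not separate. PLTP did not pass with no low-count filter (adjusted p = 0.111), and its value was 0.81 when empty vector replicate 1 was left out.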

How the data were processed

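Per the labels' protocols, RNA came from an RNeasy Mini kit and libraries from a NEBNext Ultra RNA kit. The authors deposited 1 table of raw, whole-number read counts with Ensembl gene IDs. Listed without roles in the submitters' processing notes are STAR 2.7.9a, bcl2fastq 2.20.0.422, DESeq2 1.32.0 and GRCh38. Nothing used here names the counter, its strand setting or its annotation, so overlapping genes may share reads. A further 12 library columns correspond to no described sample and were left aside. Columns were matched to sample titles on cell line, construct and replicate number. Symbols came from a table of gene IDs (60463 rows matched), and positions and exon lengths from GENCODE 29 on GRCh38 (58337 rows matched).

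All 4 libraries were fitted in edgeR 4.0.16 (R 4.3.3) with TMM scaling, filterByExpr defaults, robust quasi-likelihood tests and Benjamini-Hochberg adjustment over 18771 genes at 0.05. CPM uses TMM-scaled library sizes. Log2 fold changes are TINCR-HA-FLAG over empty vector. Intervals are unadjusted, at 95%. At these depths 3 counts correspond to 0.14 to 0.18 CPM, and counting limits cover counting error only. The edgeR and DESeq2 fits were tested on simulated counts. Alternatives were DESeq2 1.42.0 on the same filtered genes, RLE factors, unscaled library totals, no low-count filter, a minimum of 1 CPM in 2 libraries, legacy dispersions, a replicate block, each library left out, MUC20 summed with its copy, and the longest transcript as length. Where 1 library was left out, its partner was taken to have the spread of the remaining group.

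The members and lists were chosen with earlier results of these data known. The named genes are the 10 members, the 3 genes nearest to AGR2 in pattern (mean log2 CPM of at least 2), and from each list the called genes (up to 4) and the 2 most expressed; 1 gene that this rule names is not reported here. MUC20-OT1, MUC20P1, GCNT1, GCNT3, GALNT3, GALNT18, MUC15, ANOS1, KRT13, FOXA1, FOXA2, SOX9, EHF, SPDEF, TSPAN13, TNK2 and PLTP were named after their values were seen.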

Additional observations from a re-analysis of the deposited data

How the results depend on the processing

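Of the 9 tested members, 8 stayed positive and EPCAM negative in every alternative. The length of the longest transcript in place of merged exons changed levels per kb but no fold change. AGR2 stayed called in every alternative that kept all 4 libraries, and PIGR and EPCAM were never called. DESeq2 called 3 members higher, with log2 fold changes of 1.29 for MUC16 and 1.08 for WFDC2 beside AGR2, and library totals called 2 (WFDC2 1.12). Over all genes the counts were 131 higher and 59 lower in DESeq2, and no filter gave 47 higher and 6 lower, against 85 and 18. For the related lists, 1 gene was called higher with RLE and with no filter, against 2.

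The replicate numbers are not known to pair the libraries. Deviations of same-numbered libraries correlated at 0.581 over 11984 genes, but with 2 pairs this cannot establish pairing. With the replicate block, 7 members were called higher, 13 list genes higher and 6 lower, and 1317 genes higher and 1316 lower over all genes. Log2 fold changes under the block were 0.53 for MUC1, 0.59 for MUC4, 1.29 for MUC16, 0.65 for MUC20, 0.39 for SLPI and 1.10 for WFDC2.

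Leaving out each library in turn gave 2 to 5 members called higher and 0 lower, 69 to 226 genes higher and 45 to 160 lower over all genes, and 1 to 5 list genes higher and 0 to 1 lower. Log2 fold changes ranged from 0.0905 to 0.99 for MUC4, 0.68 to 1.76 for MUC16, 0.45 to 0.84 for MUC20 and 0.88 to 1.316 for WFDC2. The cause was not tested. These counts of calls rest on fits in which 1 group had no measured spread. Low counts, at most 67 per library for PIGR and 9 for PSCA, limit what could be detected for these genes.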

Other observations

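Libraries of the same group differed by transcript length, a check chosen after seeing the data. For the 524 genes with an average log2 CPM of 2 or more and a longest transcript over 10 kb, the median log2 ratio of replicate 1 to replicate 2 was 0.19 with TINCR-HA-FLAG and 0.04 with the empty vector. Among 2161 genes with a longest transcript of up to 2 kb it was -0.17 with TINCR-HA-FLAG and -0.12 with the empty vector. MUC16 and MUC4, whose longest transcripts are 43.8 kb and 17.1 kb, were higher in replicate 1 of each group, and SLPI and WFDC2, at 0.596 kb and 0.818 kb, were higher in replicate 2 of each group. Not all members were ordered this way. MUC20, at 2.842 kb, was also higher in replicate 1 of each group, and AGR2, at 1.778 kb, had ratios of replicate 1 to replicate 2 of 1.1 with TINCR-HA-FLAG and 0.667 with the empty vector. The median log2 fold change between the groups was 0.05 for the long genes and -0.03 for the short ones. The mitochondrial share of counts also differed between replicates. It was 11.4% and 8.66% in TINCR-HA-FLAG replicates 1 and 2, and 9.43% and 7.58% in empty vector replicates 1 and 2. The part of transcript length or of the mitochondrial share in the values of the mucins was not tested.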
